A study of Mus musculus with 48 samples.

Results

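The genes of the major histocompatibility complex (MHC) that present antigen were followed in RNA-seq libraries of mouse tibial metaphysis, the region of growing and remodelling bone and marrow near the end of the tibia. The 10 symbols taken were the class I heavy chains H2-K1, H2-D1, H2-Q4, H2-Q7 and H2-T23, the class II chains H2-Aa, H2-Ab1 and H2-Eb1, the invariant chain Cd74 and the class II regulator Ciita. All 10 were rows of the deposited table of 32544 genes, and all 10 were among the 16912 genes left after a filter on low counts. The mice were males of 8 inbred strains, 19 weeks old: 5 classical laboratory strains, C57BL/6J, 129S1/SvImJ, A/J, NZO/HlLtJ and NOD/ShiLtJ, and 3 wild-derived strains, WSB/EiJ, PWK/PhJ and CAST/EiJ. In each mouse a cast held the left hindlimb still for 3 weeks, and the tibia of that immobilized limb was set against the tibia of the right, control limb of the same animal. Side of the body and cast therefore cannot be told apart, and every control limb came from a mouse that wore a cast. No engineered allele and no drug is named in the labels. Each strain gave 3 immobilized and 3 control libraries (48 in all), but 2 of the 3 A/J control libraries, replicates 2 and 5, held only 2335 and 50 counts and were left out. The analysis thus used 24 immobilized and 22 control libraries, with 1 control library for A/J, and 22 mice with both limbs.

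Class I molecules sit on nearly all nucleated cells and show peptides made inside the cell to CD8 T cells and natural killer cells: a polymorphic heavy chain pairs with the invariant light chain beta-2 microglobulin (B2m). Class II molecules are pairs of an alpha and a beta chain (H2-Aa with H2-Ab1, and H2-Ea with H2-Eb1), are made mainly by B cells, dendritic cells and macrophages, are chaperoned by Cd74 and need the coactivator Ciita for their transcription. Inbred strains carry different H2 haplotypes: the reference genome has the b haplotype of C57BL/6J, 129S1/SvImJ carries a close relative of it, and mice of the b haplotype do not transcribe the E alpha chain. In bone, class II transcripts come mainly from blood cells of the marrow.

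In GRCm38, the build called mm10 in the submitters' processing notes, the GENCODE annotation places 8 members on chromosome 17. In order along it these are H2-K1 (chr17:33996017-34000347, minus strand, 8 exons), H2-Ab1 (chr17:34257689-34269419, plus), H2-Aa (chr17:34282744-34287823, minus), H2-Eb1 (chr17:34305867-34316674, plus), H2-D1 (chr17:35262730-35267499, plus), H2-Q4 (chr17:35379617-35385290, plus), H2-Q7 (chr17:35439155-35443773, plus) and H2-T23 (chr17:36029773-36032855, minus). Ciita lies on chromosome 16 (chr16:10480059-10528418, plus, 19 exons) and Cd74 on another chromosome. All are protein-coding genes. Levels per kilobase use the exons of this annotation, which may differ from the annotation behind the deposited counts.

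The class I heavy chains are near copies of one another, which bears on every count given for them. The first 90 bases of exon 4, which encodes the conserved alpha-3 domain, are shown for the 5 class I members, 5′ to 3′ on the coding strand, with capitals where the base differs from H2-K1 at the same position. They lie at chr17:33997471-33997560 for H2-K1, chr17:35265784-35265873 for H2-D1, chr17:35382858-35382947 for H2-Q4, chr17:35442267-35442356 for H2-Q7 and chr17:36031008-36031097 for H2-T23.
H2-K1: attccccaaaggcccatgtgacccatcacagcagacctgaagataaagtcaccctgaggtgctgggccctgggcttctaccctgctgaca
H2-D1: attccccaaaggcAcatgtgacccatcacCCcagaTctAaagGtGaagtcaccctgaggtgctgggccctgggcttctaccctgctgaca
H2-Q4: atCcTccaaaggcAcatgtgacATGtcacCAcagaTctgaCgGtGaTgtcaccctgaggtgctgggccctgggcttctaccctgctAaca
H2-Q7: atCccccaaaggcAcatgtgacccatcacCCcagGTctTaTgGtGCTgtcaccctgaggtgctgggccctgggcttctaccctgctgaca
H2-T23: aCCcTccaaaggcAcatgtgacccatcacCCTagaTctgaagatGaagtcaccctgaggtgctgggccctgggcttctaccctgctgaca
The other 4 genes differ from H2-K1 at 7 (H2-D1), 14 (H2-Q4), 12 (H2-Q7) and 9 (H2-T23) of these 90 bases, and the second part of the stretch is nearly free of differences. Of all stretches of 50 bases in the reference transcript, 8.79% in H2-K1, 14.3% in H2-D1, 24.3% in H2-Q4, 34.9% in H2-Q7 and 28.8% in H2-T23 also occur in a transcript of another gene. The closest partner of H2-Q7 was H2-Q6, which holds 19.3% of its 50-base stretches. None of the stretches of H2-Aa, H2-Ab1, H2-Eb1, Cd74 or Ciita was shared (0% each). Reads of all 8 strains were counted on a genome of the b haplotype, so for class I a row's count in another strain may hold reads of a neighbouring gene or miss reads of a divergent allele. How far this moved the counts was not tested, and each class I value is uncertain to that extent.

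Upstream sequences of some members are shown as description only, and their part in the levels was not tested. In the RefSeq promoter windows of GRCm38 (250 bases before to 50 after the start), 4 motifs were searched on both strands. The first was a 10-base kappaB-type site (the first run of capitals in H2-K1). The others were GAANNGAAA (an interferon-response core), GATTGG (the CCAAT or Y box) and TTCNNNGAA (a STAT-type site). Entries were found for 7 of the 10 members; capitals mark the matches, and no marked match overlaps another. The stretches printed are chr17:34000334-34000464 for H2-K1, chr17:35379458-35379573 for H2-Q4, chr17:35439016-35439150 for H2-Q7, chr17:34287861-34287878 for H2-Aa and chr17:34305801-34305843 for H2-Eb1, each 5′ to 3′ on the gene's own strand.
H2-K1: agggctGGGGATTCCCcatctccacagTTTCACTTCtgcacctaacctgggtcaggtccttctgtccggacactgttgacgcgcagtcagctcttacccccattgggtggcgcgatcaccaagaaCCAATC
H2-Q4: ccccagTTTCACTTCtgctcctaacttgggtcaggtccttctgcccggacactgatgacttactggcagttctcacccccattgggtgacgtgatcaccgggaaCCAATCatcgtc
H2-Q7: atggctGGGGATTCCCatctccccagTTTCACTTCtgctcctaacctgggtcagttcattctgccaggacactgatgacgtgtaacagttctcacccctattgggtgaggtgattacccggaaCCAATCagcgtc
H2-Aa: ttttctGATTGGttctgg
H2-Eb1: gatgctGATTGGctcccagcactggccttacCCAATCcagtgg
H2-K1, H2-D1 and H2-Q7 hold the kappaB-type site, GAANNGAAA and GATTGG, H2-Q4 holds the last 2 of these, and H2-T23 and H2-Aa hold 1 GATTGG each. H2-Eb1 holds 2 copies of GATTGG, and no window held TTCNNNGAA. Among 32851 RefSeq promoters, 16.1% hold GATTGG, 7.52% GAANNGAAA, 0.107% the kappaB-type site and 8.3% TTCNNNGAA. A match describes the letters only.

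Totals ran from 5253408 to 14744056 counts in the 46 libraries used. Levels are given in CPM, counts per 1000000 of the library's effective size. That size is its total over the genes left after the filter times edgeR's normalization factor. Differences are given as log2 ratios with their standard error (SE). Osteoblast genes were high in every library. Their summed level was 13340.2 to 265075 CPM in immobilized and 3969 to 104728 CPM in control limbs of the paired mice. The unpaired immobilized limbs of A/J replicates 2 and 5 had 22431 and 6262 CPM. No gene of the blood-cell lists was at 0 throughout. Skeletal muscle genes ranged from 14.2 to 15047 CPM in immobilized and from 39.5 to 46353 CPM in control limbs. In whole tissue, fewer cells of a type and less RNA per cell cannot be told apart.

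Per kilobase of exon, Cd74 and H2-D1 were the most abundant members. The median level over libraries was 349 CPM per kb in immobilized and 389 in control limbs for Cd74, and 302 and 304 CPM per kb for H2-D1. H2-Aa had 237 and 227, H2-K1 222 and 225, and H2-Ab1 137 and 140.0 CPM per kb in immobilized and control limbs. The nonclassical class I genes were lower, with 59.6 and 65.6 for H2-T23, 50.8 and 49.1 for H2-Q4, and 22 and 25.3 for H2-Q7 in the same order of limbs. H2-Eb1 had medians of 70.3 and 68.2, which average over strains that differ widely. The regulator Ciita was far below its targets, at 1.62 CPM per kb in immobilized and 1.83 in control limbs.

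**Figure D1:**
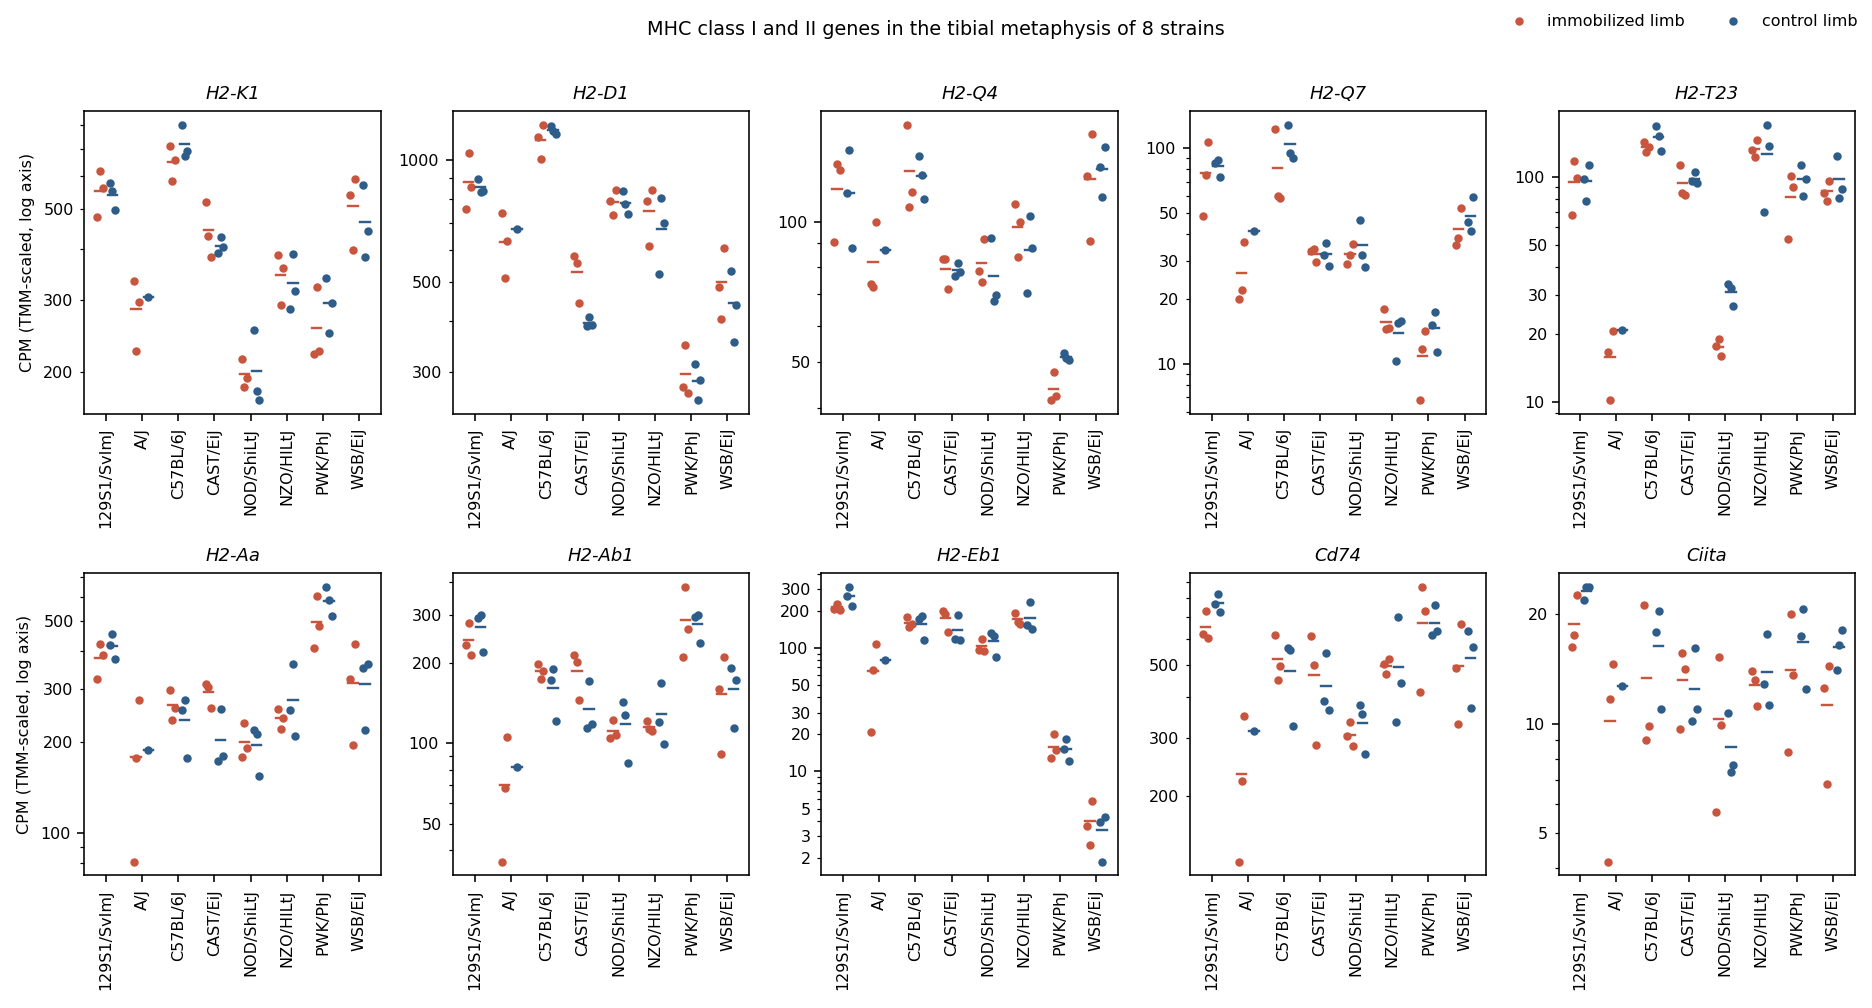
Level of each of the 10 members in CPM (log axis) in every library, by strain, with immobilized limbs left of control limbs; points are single libraries and bars their means. H2-Eb1 lies between 1.86 and 19.9 CPM in PWK/PhJ and WSB/EiJ and above them in the other 6 strains.

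Nearly every member differed between strains. Across the 8 strains, 10 of 10 members differed in control limbs and 9 of 10 in immobilized limbs (edgeR quasi-likelihood F test, Benjamini-Hochberg adjusted p under 0.05 over all genes tested). Of all genes, 39.7% were called in control and 48.2% in immobilized limbs. The member not called was Ciita in immobilized limbs (adjusted p = 0.581). In control limbs the calls of Cd74 and Ciita were the least firm: leaving out 1 library took the adjusted p of Cd74 to at most 0.0666 (without 129S1/SvImJ control replicate 2) and that of Ciita to 0.0518 (without NOD/ShiLtJ control replicate 5). The Cd74 call was lost in 7 of 22 such fits, without 129S1/SvImJ replicate 2 or 3, CAST/EiJ 2 or 4, NOD/ShiLtJ 5 or 6, or PWK/PhJ 4, and the Ciita call without NOD/ShiLtJ 5 or 6. The span between the highest and the lowest strain mean in control limbs was 6.27 log2 units for H2-Eb1, wider than that of 98.4% of tested genes, 2.9 for H2-Q7 and 2.81 for H2-T23. It was 1.29 for Cd74 and 1.32 for H2-Q4, close to the median of 1.14 over all tested genes.

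Each strain was then set against the mean of the other 7. In control limbs 35 of the 80 pairs of strain and member were called, 22 higher and 13 lower, against 9.56% of pairs over all genes. In immobilized limbs it was 32 of 80, 20 higher and 12 lower, against 12.2%. By strain in control limbs, 8 of 10 members were called in 129S1/SvImJ (all higher; 4.92% of all genes were called higher and 6.31% in either direction), 7 in PWK/PhJ (2 higher and 5 lower; 16.5%) and 6 in C57BL/6J (all higher; 5.53% of genes higher, 8.36% either way). NOD/ShiLtJ had 5 (2 higher and 3 lower; 10.5%), NZO/HlLtJ 3 (2 higher, 1 lower; 4.48%), WSB/EiJ 3 (1 higher, 2 lower; 6.35%), CAST/EiJ 2 (1 each way; 22.2%) and A/J 1 (lower; 0.29% of genes lower, 1.66% either way). The CAST/EiJ share of 2 in 10 is close to its background. In immobilized limbs the counts were 7 in PWK/PhJ (18.7% of all genes), 6 in C57BL/6J (7.2%), 6 in 129S1/SvImJ (9.56%), 3 in A/J (12.4%), 3 in WSB/EiJ (7.43%), 3 in NZO/HlLtJ (6.5%), 2 in NOD/ShiLtJ (18.2%) and 2 in CAST/EiJ (17.8%). Leaving out each library in turn, 21 of the 35 control-limb calls and 20 of the 32 immobilized-limb calls held in every fit.

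**Figure D2:**
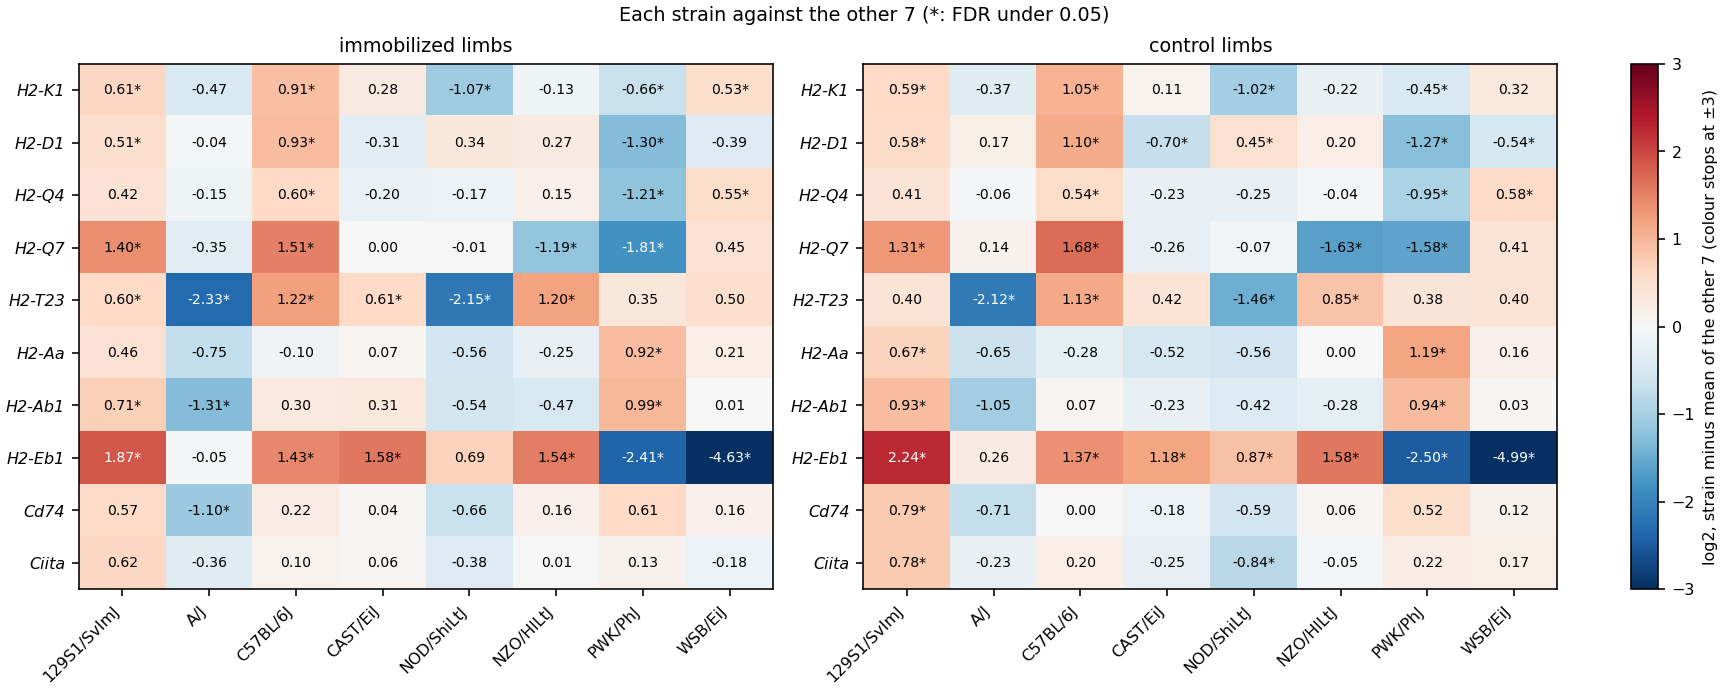
Log2 difference of each strain from the mean of the other 7 for the 10 members, immobilized limbs left and control limbs right; colour gives the difference and marks show pairs past an adjusted p of 0.05. The deepest negative values are H2-Eb1 in WSB/EiJ, -4.63 in immobilized and -4.99 in control limbs.

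H2-K1 and H2-D1, the classical class I heavy chains, were highest in C57BL/6J and followed different orders below it. H2-K1 had 711, 586 and 658 CPM in immobilized and 801, 672 and 690.5 CPM in control limbs of C57BL/6J, 479, 620.2 and 561 CPM in immobilized and 577, 552 and 497 CPM in control limbs of 129S1/SvImJ, and 215, 184 and 193 CPM in immobilized and 254, 180.2 and 171 CPM in control limbs of NOD/ShiLtJ. The 3 NOD/ShiLtJ libraries of either limb were below every C57BL/6J and 129S1/SvImJ library. H2-K1 was higher in C57BL/6J than in the mean of the other 7 strains by 1.05 (SE 0.13, adjusted p = 4.97e-05) and lower in NOD/ShiLtJ, at -1.02 (SE 0.16, adjusted p = 0.000308), both in control limbs; the immobilized limbs gave 0.91 and -1.07. The order of control-limb means was C57BL/6J, 129S1/SvImJ, WSB/EiJ, CAST/EiJ, NZO/HlLtJ, A/J, PWK/PhJ and NOD/ShiLtJ. In it the ranges of neighbours overlapped except between C57BL/6J and 129S1/SvImJ and between CAST/EiJ and NZO/HlLtJ.

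H2-D1 had 1141, 1007 and 1218 CPM in immobilized and 1214, 1177 and 1159 CPM in control limbs of C57BL/6J, 794, 729.7 and 841 CPM in immobilized and 836, 780.0 and 736 CPM in control limbs of NOD/ShiLtJ, and 276, 349 and 265 CPM in immobilized and 314, 255 and 287 CPM in control limbs of PWK/PhJ. Every PWK/PhJ library was below every library of the other 2 strains, and NOD/ShiLtJ, lowest for H2-K1, ranked next after C57BL/6J and 129S1/SvImJ for H2-D1. The control-limb difference from the other 7 strains was 1.1 in C57BL/6J (SE 0.12, adjusted p = 1.15e-05), -1.27 in PWK/PhJ (SE 0.15, adjusted p = 7.63e-06) and -0.70 in CAST/EiJ (SE 0.14, adjusted p = 0.00181). The ratio of H2-D1 to H2-K1 counts was 4.0 ± 0.337 in immobilized and 3.98 ± 0.589 in control limbs of NOD/ShiLtJ (SD, n = 3 each). It was 1.72 ± 0.123 and 1.65 ± 0.12 in immobilized and control limbs of C57BL/6J, and 0.981 ± 0.0688 and 0.951 ± 0.0362 in those of WSB/EiJ. These ratios compare counts, not lengths. Smaller control-limb differences were called for H2-K1 and H2-D1 in 129S1/SvImJ (0.59 and 0.58), H2-D1 in NOD/ShiLtJ (0.45) and WSB/EiJ (-0.54), and H2-K1 in PWK/PhJ (-0.45). Each of these 5 calls was lost when single libraries were left out, with adjusted p up to 0.231: without 129S1/SvImJ control replicate 2 or 3, any NOD/ShiLtJ control library, WSB/EiJ control replicate 4 or 5, and, for H2-K1 in PWK/PhJ, in 12 of 22 fits, among them those without any 1 PWK/PhJ control library.

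H2-Q7, a nonclassical class I chain of the Q region, was highest in the strains of b-type haplotype and lowest in NZO/HlLtJ and PWK/PhJ. It had 48.5, 75.1 and 107 CPM in immobilized and 86, 88.6 and 73.7 CPM in control limbs of 129S1/SvImJ and 123, 60.2 and 58.9 CPM in immobilized and 128, 95.3 and 90 CPM in control limbs of C57BL/6J. In NZO/HlLtJ it had 17.9, 14.4 and 14.7 CPM in immobilized and 10.3, 15.4 and 15.8 CPM in control limbs, and in PWK/PhJ 6.79, 11.7 and 14.3 CPM in immobilized and 15.2, 17.4 and 11.3 CPM in control limbs. All NZO/HlLtJ and PWK/PhJ libraries were below all libraries of the other 6 strains, and the other 4 strains lay between, from 20 to 59.7 CPM, overlapping the lowest 129S1/SvImJ and C57BL/6J libraries. Control-limb differences were 1.31 in 129S1/SvImJ, 1.68 in C57BL/6J, -1.63 in NZO/HlLtJ and -1.58 in PWK/PhJ, with SE from 0.15 to 0.2 and adjusted p of at most 4.97e-05. H2-Q6, the row that shares most sequence with H2-Q7, averaged 77.4 ± 12.8 CPM in 129S1/SvImJ, 81.2 ± 21 in C57BL/6J, 26.8 ± 7.5 in NZO/HlLtJ and 23.1 ± 4.43 in PWK/PhJ control limbs (SD, n = 3 each). H2-Q4, another Q-region chain, was lowest in PWK/PhJ, with 41.5, 47.7 and 42.3 CPM in immobilized and 52.5, 51.2 and 50.7 CPM in control limbs, below every other library. Its control-limb difference there was -0.95 (SE 0.15, adjusted p = 0.000189). Its calls in C57BL/6J (0.54) and WSB/EiJ (0.58) were lost without C57BL/6J control replicate 1 or 4 and without WSB/EiJ control replicate 5 (adjusted p up to 0.122 and 0.111).

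H2-T23 encodes Qa-1, the mouse counterpart of HLA-E, which presents class I leader peptides to natural killer cell receptors. It was low in A/J, with 16.7, 10.2 and 20.7 CPM in immobilized and 21 CPM in control limbs, and in NOD/ShiLtJ, with 17.7, 19.1 and 16 CPM in immobilized and 33.6, 32.2 and 26.7 CPM in control limbs. The lowest library of the other 6 strains had 53.1 CPM and the highest 169 CPM, so these groups did not overlap. In control limbs the difference from the other 7 strains was -2.12 in A/J (SE 0.4, adjusted p = 0.00606, 1 library) and -1.46 in NOD/ShiLtJ (SE 0.22, adjusted p = 0.000288). In immobilized limbs it was -2.33 in A/J, here with 3 libraries (SE 0.22, adjusted p = 2.76e-07), and -2.15 in NOD/ShiLtJ (SE 0.22, adjusted p = 7.83e-07). C57BL/6J was highest, at 1.13 in control limbs (SE 0.18, adjusted p = 0.000612). The call in NZO/HlLtJ control limbs (0.85) was lost without the A/J control library or without NZO/HlLtJ control replicate 5 or 6 (adjusted p up to 0.137). Neighbours in the T region did not share one pattern: H2-T22 averaged 7.33 ± 1.69 CPM in A/J and 6.07 ± 0.192 in NOD/ShiLtJ immobilized limbs, against 64.9 ± 5.3 in C57BL/6J (SD, n = 3 each). H2-T10 averaged 33.3 ± 4.38 and 29.7 ± 1.63 CPM in the same A/J and NOD/ShiLtJ limbs, against 8.06 ± 1.47 in C57BL/6J.

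Summed over the 31 class I rows of the table, strains spread less than H2-Q7, H2-T23, H2-D1 or H2-K1 did and about as much as H2-Q4. The highest strain mean of the sum was 2.85 times the lowest in immobilized and 2.73 times in control limbs. For single members the same ratio was 7.38 and 7.55 for H2-Q7, 8.55 and 7.15 for H2-T23, 3.78 and 4.15 for H2-D1, 3.3 and 3.58 for H2-K1 and 2.93 and 2.52 for H2-Q4, in immobilized and control limbs. For B2m, the shared light chain, it was 1.54 in immobilized and 1.74 in control limbs. PWK/PhJ had the lowest class I sum, 848 ± 151 CPM in immobilized and 953 ± 104 CPM in control limbs, while its B2m was 788 ± 92.6 and 943 ± 118 CPM (SD, n = 3 each). C57BL/6J had the highest sum, 2422 ± 254 CPM in immobilized and 2604 ± 197 CPM in control limbs. A sum over rows keeps reads that moved between class I rows, but not reads that matched none or several of them.

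The make-up of the class I counts differed by strain. H2-D1 took 56.9% ± 2.25 of them in NOD/ShiLtJ control limbs and 29.7% ± 0.761 in WSB/EiJ control limbs (SD, n = 3 each), and H2-K1 14.5% ± 1.74 and 31.3% ± 0.999. H2-T23 took 10.2% ± 0.49 in PWK/PhJ and 1.53% in the 1 A/J control library. The H2-Q4 share ranged only from 4.81% in C57BL/6J to 8.86% in WSB/EiJ. H2-Q2, which is no member, took 4.16% of the class I counts in PWK/PhJ control limbs and 0.0107% in those of C57BL/6J.

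**Figure D3:**
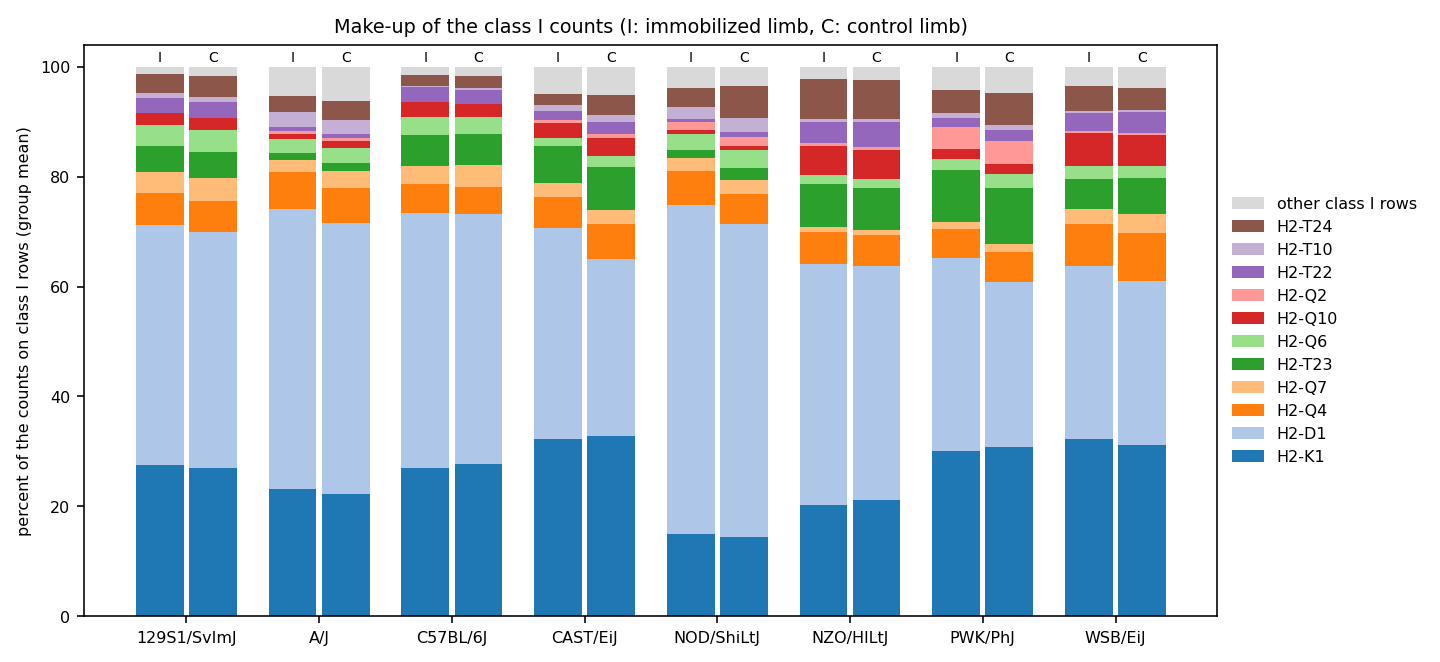
Share of all class I counts (percent, stacked) by strain, immobilized left of control, with bars as group means over libraries. Drawn singly are H2-K1, H2-D1, H2-Q4, H2-Q7, H2-T23, H2-Q6, H2-Q10, H2-Q2, H2-T22, H2-T10 and H2-T24. All other class I rows are stacked together in grey, some of which also reached 1% in a group. H2-D1 is the widest band in NOD/ShiLtJ (59.8% in immobilized and 56.9% in control limbs), and H2-K1 and H2-D1 are about even in WSB/EiJ.

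Among the class II genes, H2-Aa, H2-Ab1 and Cd74 had their highest means in PWK/PhJ and 129S1/SvImJ and their lowest in A/J and NOD/ShiLtJ, in both limbs, while H2-Eb1 followed another order. H2-Aa, the A alpha chain, was highest in PWK/PhJ, with 408, 604 and 482 CPM in immobilized and 649.8, 586 and 518 CPM in control limbs, and 129S1/SvImJ followed with 324, 420.4 and 387 CPM in immobilized and 417, 452 and 376 CPM in control limbs. A/J had 80.7, 177 and 276 CPM in immobilized and 189 CPM in control limbs. In control limbs every PWK/PhJ library exceeded every other library, while in immobilized limbs PWK/PhJ and 129S1/SvImJ overlapped. The PWK/PhJ difference in control limbs was 1.19 for H2-Aa (SE 0.17, adjusted p = 9.21e-05) and 0.94 for its beta partner H2-Ab1 (SE 0.19, adjusted p = 0.00179). In immobilized limbs these were 0.92 and 0.99, both called, and both lost without PWK/PhJ immobilized replicate 4 (adjusted p = 0.0674 and 0.0657).

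In 129S1/SvImJ control limbs, H2-Aa (0.67), H2-Ab1 (0.93), Cd74 (0.79) and Ciita (0.78) were all called higher than in the other 7 strains. All 4 calls were lost without 129S1/SvImJ control replicate 2 or 3, and that of Ciita also without replicate 6, with adjusted p up to 0.255. Cd74, which chaperones class II dimers, had 623, 733 and 606 CPM in immobilized and 771, 827 and 727 CPM in control limbs of 129S1/SvImJ and 126, 222 and 352 CPM in immobilized and 316 CPM in control limbs of A/J. No neighbours in its order of strain means were separated in either limb. Ciita, at 4.17 to 23.8 CPM, was highest in 129S1/SvImJ, with 16.3, 17.5 and 22.6 CPM in immobilized and 21.9, 23.8 and 23.7 CPM in control limbs. It was lower than the other 7 strains in NOD/ShiLtJ control limbs, at -0.84 (SE 0.22, adjusted p = 0.0168), a call lost without NOD/ShiLtJ control replicate 5 or 6 (adjusted p up to 0.102). Summed B cell markers, from 12 genes, also differed between strains: they averaged 577 ± 75.5 CPM in PWK/PhJ, 609.6 ± 166 in CAST/EiJ and 226 ± 26.8 in 129S1/SvImJ control limbs (SD, n = 3 each). Their part in the class II levels was not tested.

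H2-Eb1, the E beta chain, was almost missing from 2 strains. It had 3.64, 2.54 and 5.75 CPM in immobilized and 3.92, 1.86 and 4.27 CPM in control limbs of WSB/EiJ, 12.8, 19.9 and 14.8 CPM in immobilized and 15.2, 18.2 and 12.1 CPM in control limbs of PWK/PhJ and 209, 227 and 203 CPM in immobilized and 265, 314 and 217 CPM in control limbs of 129S1/SvImJ. WSB/EiJ was below PWK/PhJ, and PWK/PhJ below all libraries of the other 6 strains, with no overlap in either limb. Behind these levels stood 94 and 72 counts over the 3 immobilized and 3 control libraries of WSB/EiJ, and 304 and 334 over those of PWK/PhJ. The control-limb difference from the other 7 strains was -4.99 in WSB/EiJ (SE 0.33, adjusted p = 1.77e-08) and -2.5 in PWK/PhJ (SE 0.27, adjusted p = 3.53e-06). The positive calls in 129S1/SvImJ (2.24), C57BL/6J (1.37), CAST/EiJ (1.18), NZO/HlLtJ (1.58) and NOD/ShiLtJ (0.87) are set against a mean that holds WSB/EiJ and PWK/PhJ. The NOD/ShiLtJ call was lost without its control replicate 4 or 5 (adjusted p up to 0.123).

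Set against the beta chain of the other class II molecule, H2-Eb1 counts were near those of H2-Ab1 in 4 strains and in the A/J control library, above them in NZO/HlLtJ and far below them in PWK/PhJ and WSB/EiJ. The ratio of H2-Eb1 to H2-Ab1 counts in immobilized and control limbs was 0.886 ± 0.0706 and 0.981 ± 0.0701 in 129S1/SvImJ, 0.863 ± 0.037 and 0.972 ± 0.0205 in C57BL/6J, and 0.918 ± 0.0471 and 0.971 ± 0.0446 in NOD/ShiLtJ (SD, n = 3 each). It was 0.936 ± 0.0151 and 1.03 ± 0.0464 in CAST/EiJ, and 1.47 ± 0.0889 and 1.36 ± 0.0787 in NZO/HlLtJ. A/J had the widest spread, 0.858 ± 0.247 over its 3 immobilized libraries, with 0.574 in mouse 1, and 0.979 in the 1 control library, which is of that mouse. In PWK/PhJ it was 0.0561 ± 0.00454 and 0.0544 ± 0.00533, and in WSB/EiJ 0.026 ± 0.0027 and 0.0206 ± 0.00426. H2-Ab1 itself was highest in PWK/PhJ and in the middle of the order in WSB/EiJ. The partner of H2-Eb1, the E alpha chain, is listed as H2-Ea-ps (chr17:34341959-34344645, minus strand, annotated as a polymorphic pseudogene) and showed another split. H2-Ea-ps had no count in the 6 libraries of 129S1/SvImJ or the 6 of C57BL/6J, where a summed count of 0 allows up to 0.0674 and 0.0635 CPM (3 counts per strain). It had 2 counts in all of NOD/ShiLtJ and 7 in all of PWK/PhJ. In WSB/EiJ it had 149, 84.5 and 188 CPM in immobilized and 147, 118 and 180.0 CPM in control limbs, in CAST/EiJ 177, 176 and 179 CPM in immobilized and 122, 162 and 129 CPM in control limbs and in NZO/HlLtJ 162, 145 and 129 CPM in immobilized and 164, 200.2 and 137 CPM in control limbs. The A/J libraries had 22.4, 74 and 70.5 CPM in immobilized and 64.6 CPM in control limbs. Both E chains were therefore well above their lowest strains in A/J, CAST/EiJ and NZO/HlLtJ, while 129S1/SvImJ, C57BL/6J and NOD/ShiLtJ had H2-Eb1 with little or no H2-Ea-ps, WSB/EiJ had H2-Ea-ps with little H2-Eb1, and PWK/PhJ had little of either. Whether divergent alleles of PWK/PhJ and WSB/EiJ went uncounted was not tested.

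**Figure D4:**
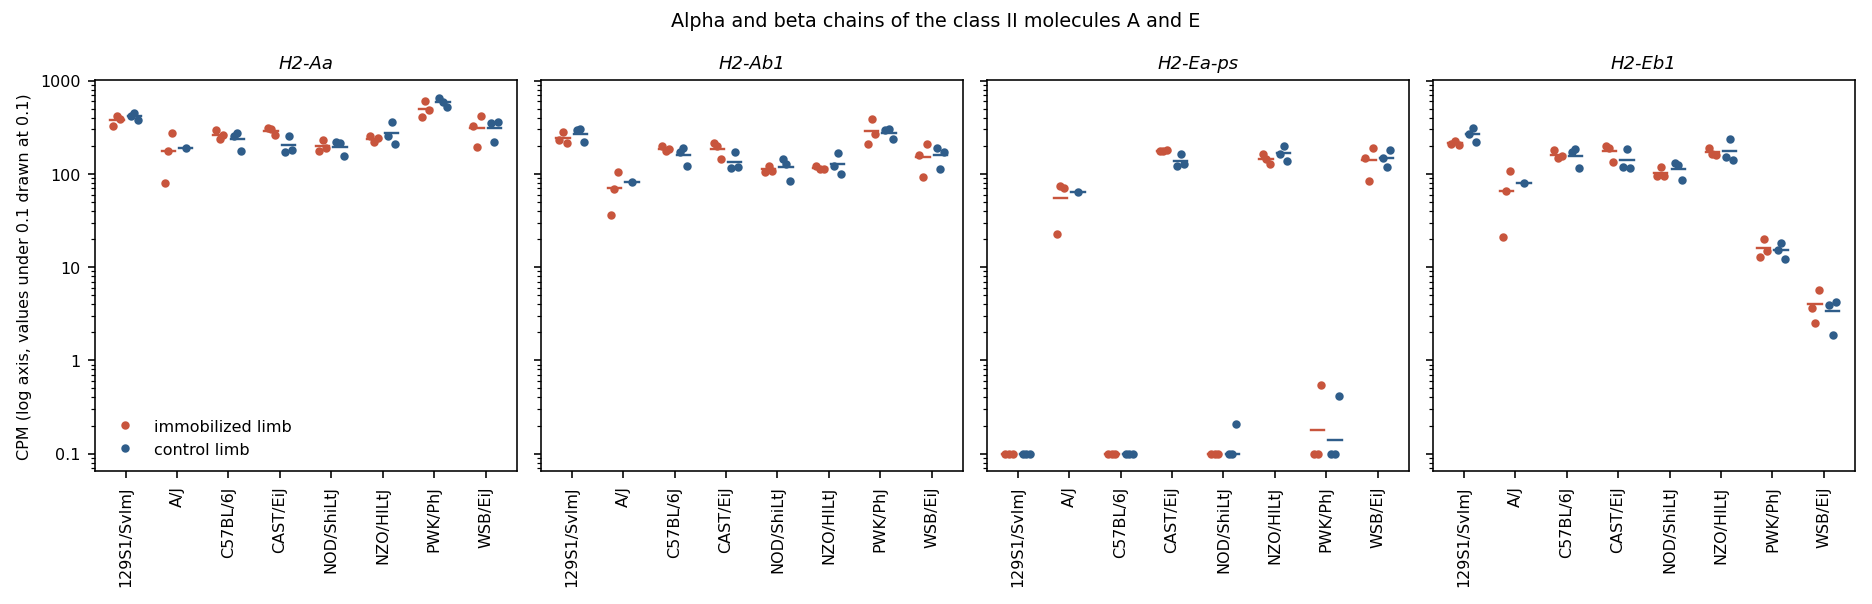
Levels in CPM of the class II chains H2-Aa, H2-Ab1, H2-Eb1 and of H2-Ea-ps in every library, by strain, immobilized left of control; points are single libraries, bars their means, and values under 0.1 CPM are drawn at 0.1. H2-Ab1 stays between 36.3 and 383 CPM in all libraries, while H2-Eb1 falls away in PWK/PhJ and WSB/EiJ and H2-Ea-ps in 129S1/SvImJ, C57BL/6J, NOD/ShiLtJ and PWK/PhJ.

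129S1/SvImJ and C57BL/6J, whose class I and II alleles are those of the reference or close to them, were compared with the mean of the other 6 strains in control limbs. Of 10 members 8 were higher and 0 lower, where 2.57% of all genes were called higher and 4.08% in either direction. All 5 class I heavy chains were among them: H2-Q7 by 1.74 (SE 0.13, adjusted p = 9.46e-08), H2-D1 by 0.98 (SE 0.1, adjusted p = 5.14e-06), H2-K1 by 0.96, H2-T23 by 0.89 and H2-Q4 by 0.56. The group means were 632 CPM in the 2 strains and 334 CPM in the other 6 for H2-K1, and 93.6 and 31.1 CPM for H2-Q7. Not every called member was high in both strains. H2-T23 averaged 150 CPM in C57BL/6J but 96.2 CPM in 129S1/SvImJ control limbs. The latter was below NZO/HlLtJ (126), CAST/EiJ (98), PWK/PhJ (97.6) and WSB/EiJ (97.6). H2-Q4 had its highest control-limb mean in WSB/EiJ (130 CPM), and H2-Ab1 in PWK/PhJ (278 CPM). Of the class II genes, H2-Eb1 (2.11), H2-Ab1 (0.58) and Ciita (0.57) were called, while H2-Aa (0.23, adjusted p = 0.522) and Cd74 (0.46, adjusted p = 0.159) were not. With PWK/PhJ and WSB/EiJ left out of the mean, an alternative added after seeing the data, the H2-Eb1 difference was 0.73 (adjusted p = 0.0409) and the same 8 members were called. The calls of Ciita and H2-Ab1 were lost in 14 and 10 of the 22 fits that each left out 1 library, with adjusted p up to 0.18 and 0.137, both without C57BL/6J control replicate 4.

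Genes that act with the heavy chains moved less in the same comparison. Of 15 class I processing genes, 2 were higher: Tap1, which pumps peptides into the endoplasmic reticulum, by 0.40 (adjusted p = 0.0276), and Tapbp, which bridges that pump to the heavy chain, by 0.35 (adjusted p = 0.0171). The median over the list was 0.15, against -0.00 over all genes tested. B2m averaged 686 CPM in the 2 strains and 671 CPM in the other 6, a difference of 0.04 (SE 0.087, adjusted p = 0.932), and Nlrc5, the class I coactivator, differed by 0.15 (adjusted p = 0.563). Of 18 class II-related genes, 3 were higher and 1, H2-Ea-ps, lower. Those higher were H2-DMb1 (1.12) and H2-DMa (0.64), the chains of the peptide exchanger H2-DM, and Rfxap (0.46), a subunit of the factor that binds class II promoters. When single control libraries were left out, the calls of Tap1, Tapbp and Rfxap were lost in 4, 2 and 10 of 22 fits (adjusted p up to 0.114, 0.0639 and 0.11), among them fits without 1 library of 129S1/SvImJ or of C57BL/6J, and that of H2-Ea-ps without NOD/ShiLtJ or PWK/PhJ control replicate 6. Of 13 other class I rows, H2-Q6 (1.37), H2-Q10 (0.76) and H2-T22 (1.36) were higher, and H2-Q1 (-3.54), H2-Q2 (-5.5), H2-T3 (-2.89) and H2-Bl (-3.54) lower. H2-Q2 averaged 0.251 CPM in the 2 strains and 15.7 CPM in the other 6. Of 9 interferon gamma pathway genes edgeR called 0, with 1 at an unadjusted p under 0.05 and 1 called by DESeq2.

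No member passed the test for a difference between limbs averaged over the strains. edgeR called 0 of 10 over the 22 mice, in a fit with a term for each mouse, against 7.41% of all genes; 4 had an unadjusted p under 0.05, and DESeq2 called 1, Ciita. Ciita was lower in the immobilized limb in 16 of 22 mice, with a lowest, median and highest level of 4.17, 13.4 and 22.6 CPM in immobilized limbs and 7.38, 15.1 and 23.8 CPM in control limbs. The mean difference over strains was -0.37 (SE 0.13, adjusted p = 0.0876). H2-Eb1 differed by -0.21 (SE 0.076, adjusted p = 0.0975), H2-Q7 by -0.28 (SE 0.1, adjusted p = 0.112) and H2-T23 by -0.21 (SE 0.1, adjusted p = 0.225). The others lay between -0.19 (Cd74) and 0.11 (H2-D1). H2-K1 had 184, 392 and 711 CPM as lowest, median and highest in immobilized limbs and 171, 389 and 801 CPM in control limbs, and its difference was 0.01 (SE 0.074). The limbs overlapped for every member.

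**Figure D5:**
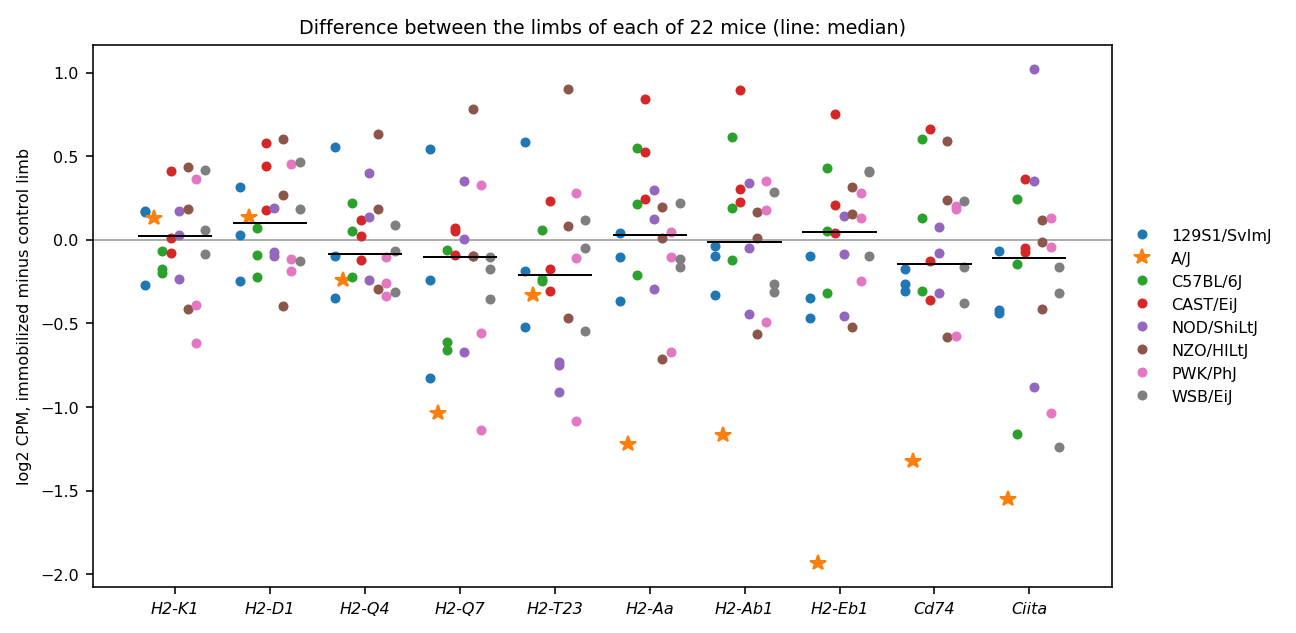
Log2 difference, immobilized minus control limb, for each of the 22 mice and each member, coloured by strain; short black lines are medians, stars the A/J mouse, and the line at 0 marks equal levels. The A/J mouse lies lowest for H2-Aa, H2-Ab1, H2-Eb1, Cd74 and Ciita, with -1.93 for H2-Eb1.

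A single pair carried most of the class II difference. In A/J mouse 1, the only A/J mouse with both limbs, H2-Eb1 had 20.9 CPM in the immobilized and 80.3 CPM in the control limb, H2-Aa 80.7 and 189 CPM, and Cd74 126 and 316 CPM. The immobilized limbs of A/J mice 2 and 5, which have no usable control, had 65.9 and 109 CPM of H2-Eb1, around the level of the 1 control limb. Without this mouse the mean difference over the other 7 strains was 0.04 for H2-Eb1 (adjusted p = 0.811), 0.03 for H2-Aa, 0.04 for H2-Ab1, -0.03 for Cd74 and -0.20 for Ciita (adjusted p = 0.283), so that the sign of H2-Eb1, H2-Aa and H2-Ab1 turned. Within strains, 1 of 80 pairs was called (3.28% of such pairs over all genes): H2-Eb1 in A/J, at -1.94 (SE 0.34, adjusted p = 0.0163), where 1.28% of genes were called lower and 3.98% in either direction. With 1 pair, that SE is borrowed from the spread between mice of the other strains. H2-Aa, H2-Ab1 and Cd74 in A/J were -1.23, -1.17 and -1.32 (adjusted p = 0.0507, 0.0671 and 0.0685), and H2-K1 and H2-D1 0.13 each. In the same mouse the summed B cell markers were 85.2 CPM in the immobilized and 254 CPM in the control limb. Dendritic cell markers were 66.4 and 129, macrophage markers 664 and 862, and T and NK cell markers 234 and 101 CPM. The rise of the T and NK sum lay mainly in Nkg7 (155 and 22.8 CPM) and Cd3d (52.9 and 17.5 CPM). Cd3e, Cd3g, Cd4, Cd8a, Klrb1c, Il2rb and Ncr1 were lower in the immobilized limb, and the median log2 difference of the list was -0.92. Neutrophil markers summed to 98934 and 18064 CPM in the immobilized and control limb, osteoblast markers to 15932 and 104728, adipocyte markers to 178 and 903 and skeletal muscle markers to 252 and 8563 CPM. The median log2 difference in this pair was -1.67 over the B cell, -0.998 over the dendritic cell and -0.418 over the macrophage markers. It was 2.49 over the neutrophil, -2.305 over the osteoblast, -3.28 over the adipocyte and -5.3 over the skeletal muscle markers. All of these values rest on 1 pair. The part of these markers in the class II difference was not tested.

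In the other 7 strains edgeR called 0 members, with unadjusted p under 0.05 for 3 members in CAST/EiJ and 1 in NOD/ShiLtJ. DESeq2 called 2 pairs there, H2-Aa in CAST/EiJ (adjusted p = 0.038) and H2-T23 in NOD/ShiLtJ (adjusted p = 0.0273), and 4 in A/J. The largest difference in these 7 strains was H2-T23 in NOD/ShiLtJ, with 17.7, 19.1 and 16 CPM in immobilized and 33.6, 32.2 and 26.7 CPM in control limbs and no overlap, a log2 difference of -0.81 (SE 0.26, adjusted p = 0.0675). In CAST/EiJ, H2-Aa was 0.54 (adjusted p = 0.0719) and H2-D1 0.40 (adjusted p = 0.156). These 2 strains had 13.8% (CAST/EiJ) and 8.31% (NOD/ShiLtJ) of all genes called, while 129S1/SvImJ had 0.0%, PWK/PhJ 0.0887%, WSB/EiJ 0.00591%, NZO/HlLtJ 0.00591% and C57BL/6J 0.00591%. The difference between limbs itself varied among the strains for 1 of 10 members, H2-Eb1 (adjusted p = 0.0494; 2.5% of all genes; 3 members at an unadjusted p under 0.05). Without A/J mouse 1 its adjusted p was 0.631, and the call was lost in 19 of the 22 fits that each left out 1 mouse.

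Some partner genes did differ between limbs, where 4.57% of all genes were called higher and 2.84% lower. Without A/J mouse 1, 17.1% were called in either direction. Of 18 class II-related genes, 4 were called: H2-Ob, a chain of the B cell inhibitor of H2-DM, fell by 0.55 on the log2 scale (SE 0.14, adjusted p = 0.0284), Rfx5, the DNA-binding subunit at class II promoters, fell by 0.31 (adjusted p = 0.00824), and the lysosomal proteases Ctsl and Lgmn rose by 0.39 and 0.42 (adjusted p = 0.0139 and 0.0152). The H2-Ob difference rested in part on A/J mouse 1: without it, it was -0.28 (adjusted p = 0.164), and the call was also lost without CAST/EiJ mouse 3 (adjusted p = 0.0509). The other 3 calls held in all 22 fits that left out 1 mouse. The median of that list was -0.01, against 0.01 over all genes. Of 13 other class I rows, H2-T22 fell by 0.32 (adjusted p = 0.0272). Of the 15 class I processing genes edgeR called 0, with 2 at an unadjusted p under 0.05 and 0 called by DESeq2. The differences were -0.03 for B2m, -0.05 for Tap1 and -0.25 for Nlrc5 (adjusted p = 0.0883). Without A/J mouse 1, edgeR called 2 of the 15, both lower, where 17.1% of all genes were called. These were Tapbpl (-0.22, adjusted p = 0.0231) and Erap1 (-0.17, adjusted p = 0.0397).

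Some markers of the cells that make class II molecules differed between limbs. Of 12 B cell markers, 6 were lower in immobilized limbs, among them the lineage factors Pax5 (-0.69) and Ebf1 (-0.39), and the median of the 12 was -0.51. Without A/J mouse 1 the count was 4 and the median -0.35, with Pax5 at -0.50 (adjusted p = 0.0345) and Ebf1, no longer called, at -0.19 (adjusted p = 0.105). The summed level of the 12 had a lowest, median and highest value of 85.2, 227 and 622 CPM in immobilized and 119, 274 and 799.9 CPM in control limbs, and was lower in 15 of 22 mice. Of 10 macrophage markers 1, Vsig4, was higher, a share near that of all genes, and 4 were higher without A/J mouse 1; their summed level was higher in the immobilized limb of 15 mice. Of 9 dendritic cell markers Cd209a was lower (-0.61) and Fscn1 higher (0.52). Osteoblast markers were higher (5 of 7) and skeletal muscle markers lower (6 of 8) in immobilized limbs, and without A/J mouse 1 these counts were 7 and 3. In the 22 fits that each left out 1 mouse, Col1a1, Col1a2, Ibsp, Myh1 and Myh2 were called throughout. The calls of Sp7 and Alpl were lost in 11 and 14 of these fits. Those of Acta1, Tnnt3, Myh4 and Actn3 were lost in 11, 14, 16 and 16. The part of these shifts in the members' levels was not tested.

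From library to library the class II genes varied together. After the mean of each group of strain and limb was taken off, Pearson's r over the 46 libraries was 0.96 for H2-Aa with H2-Ab1, 0.96 for H2-Aa with H2-Eb1 and 0.91 for H2-Ab1 with Cd74. Before it was taken off, H2-Aa and H2-Eb1 had r = -0.17, and PWK/PhJ combined the highest H2-Aa with low H2-Eb1. Ciita followed H2-Aa at 0.77 within groups. Among class I chains r within groups was 0.88 for H2-K1 with H2-D1, 0.74 for H2-Q4 with H2-Q7 and 0.41 for H2-K1 with H2-Q7. The lowest class I pair was H2-D1 with H2-Q7, at 0.32. Pairs of a class I with a class II member ran from 0.04 (H2-D1 with Ciita) to 0.65 (H2-Q4 with H2-Aa). Some of these pairs thus varied together more closely than some class I pairs did. The libraries share depth, tissue make-up and, in pairs, the animal, so these values are descriptive.

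Beyond the members, the genes whose within-group pattern was most like the mean of H2-Aa, H2-Ab1, H2-Eb1 and Cd74 over the 46 libraries were Ighd (the IgD heavy chain, r = 0.77), Sbk1 (0.75), St6gal1 (a sialyltransferase, 0.74), Lfng (0.74) and H2-T22 (0.74). For the mean of the 5 class I chains they were H2-Q6 (0.88), the B cell receptor subunits Cd79a (0.82) and Cd79b (0.80), Spib (0.80) and Mif4gd (0.78). For Ciita they were the chemokine receptor Ccr6 (0.83), Cacna1i (0.80), Gimap8 (0.78), Ighd (0.77) and H2-Ob (0.75). With strain means kept in, the closest to the class II mean were Ltbp2 (0.72), Best1 (0.68), H2-DMa (0.68), Hs6st1 (0.64) and St6gal1 (0.63).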

How the data were processed

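The samples are 48 RNA-seq libraries of tibial metaphysis, 3 per strain and limb, made from flash-frozen tissue with a stranded, poly(A)-selecting kit and read as pairs, per the labels. The authors deposited whole-number counts per gene symbol; mm10, featureCounts and DESeq2, with no version, are named in the submitters' processing notes, and neither aligner nor annotation nor strand setting is given in the sources used here. Overlapping and antisense reads may therefore be split in ways not known, and multi-mapped class I reads may have been dropped. Members and gene lists were chosen with earlier results of these data known; the members described are all 10 of the rule, and partner genes come from fixed lists, given by counts with called genes as examples, beside B2m, Tap1, Nlrc5, H2-DMa and H2-Ea-ps; a few called genes of these lists are not reported here.

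The counts were analysed in R 4.3.3 with edgeR 4.0.16 (TMM factors, filterByExpr over strain and limb, robust quasi-likelihood F test, Benjamini-Hochberg adjusted p, threshold 0.05). Limbs were compared over 44 libraries of 22 mice with a term per mouse, since both limbs come from 1 animal per the series' design; deviations of the limbs from their group means correlated with a median r of 0.0893 over 21 mice. Strains were compared in each limb separately (22 control and 24 immobilized libraries), with A/J control resting on 1. Log2 CPM used a prior count of 2. Alternatives were RLE factors, no filter, DESeq2 1.42.0, all 48 libraries, no mouse term (with 46 or 44 libraries) and each mouse or library left out. Scripts were tested on simulated counts. 27 row names that had become dates were not used. Replicates are different mice, as the labels number them; totals had a median of 7593532.5 counts.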

Additional observations from a re-analysis of the deposited data

Results flagged for a closer look

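The difference between limbs of H2-Eb1 varied among the 8 strains by a test of that variation itself (edgeR quasi-likelihood F test of strain by limb, adjusted p = 0.0494). The log2 difference, immobilized minus control, was -1.94 in A/J (1 mouse), -0.30 in 129S1/SvImJ, -0.13 in NOD/ShiLtJ, -0.02 in NZO/HlLtJ, 0.06 in C57BL/6J, 0.06 in PWK/PhJ, 0.25 in WSB/EiJ and 0.33 in CAST/EiJ. Without the A/J mouse the adjusted p was 0.631.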

How the results depend on the processing

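The number of members called for a difference between limbs averaged over strains was 0 in the fit with the mouse as replicate block, 1 with DESeq2, and 0 to 2 without 1 mouse. Within strains, 1 pair was called with the block, 0 without it (no replicate block), 2 with RLE size factors, 6 with DESeq2 and 0 to 6 without 1 mouse. Variation of the limb difference among strains was called for 1 member with the block, 0 without it, 0 with all 48 libraries, 2 with DESeq2 and 0 to 1 without 1 mouse. The fit without the block also took in the immobilized limbs of A/J mice 2 and 5 (46 libraries). An alternative added after seeing the data, with no block and the 44 libraries of the paired fit, called 0 members averaged over strains, 0 for variation among strains and 1 within strains, H2-T23 in NOD/ShiLtJ (adjusted p = 0.0447), while H2-Eb1 in A/J had -1.94 (adjusted p = 0.0562). The cause of these moves was not tested further. Strain counts stayed within 1.5 times of those reported: without 1 library they ran from 8 to 10 and from 9 to 9 of 10 (control and immobilized F tests), from 28 to 37 and from 28 to 37 of 80 (each strain against 7), and from 6 to 8 for 129S1/SvImJ and C57BL/6J against the other 6. Limb differences near 0 that passed no test turned sign: without the block H2-Aa became 0.01, H2-Ab1 0.005 and H2-K1 -0.015, and with all genes kept H2-K1 was -0.005. Without 1 mouse the range was -0.157 to 0.028 for H2-Aa, -0.148 to 0.041 for H2-Ab1, -0.241 to 0.035 for H2-Eb1 and -0.062 to 0.001 for H2-Q4, each highest without A/J mouse 1, and -0.024 to 0.043 for H2-K1, lowest without PWK/PhJ mouse 4. Among comparisons of a value with its alternative other than leaving out a sample, 459 kept direction and side of the threshold, 17 lost and 2 gained a call. Depth limits Ciita and the low H2-Eb1 and H2-Ea-ps rows most.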

Other observations

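After the values were seen, the ratio of H2-Eb1 to H2-Ab1 counts was compared between the limbs of each mouse. It was lower in the immobilized limb in 15 of 22 mice, with all 3 mice lower in each of 129S1/SvImJ, C57BL/6J, CAST/EiJ and NOD/ShiLtJ, and 0 of 3 in WSB/EiJ, where few reads stand behind the ratio. The mean log2 difference over all mice was -0.04 ± 0.29 (SD; permutation test, two-sided p = 0.534, 100000 resamples).

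The ratio of H2-D1 to H2-K1 counts, close to even in the wild-derived strains, was 1.19 ± 0.0925 in immobilized and 0.977 ± 0.0176 in control limbs of CAST/EiJ, and 1.17 ± 0.0817 and 0.974 ± 0.049 in those of PWK/PhJ (SD, n = 3 each); this difference was not tested. In A/J mouse 1 (1 pair), the immunoproteasome genes Psmb8 and Psmb9 were higher in the immobilized limb, by 1.28 and 1.36. The proteasome activator Psme2 was higher by 1.12. These genes rose most among the 15 class I processing genes, whose median difference in this pair was 0.61. Tap1 differed by 0.50 and B2m by 0.08, while Nlrc5 was lower, at -1.27. H2-Eb1 was lower in the same limb. Of the 18 class II-related genes, H2-Ob and H2-Ea-ps were called lower there, at -2.41 and -1.53 (adjusted p = 0.0464 and 0.0273).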
